A study of Mus musculus with 405 samples.

Results

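Herbicides that block acetohydroxyacid synthase, an enzyme of plants and microbes, served as a class of chemicals without a known target in mouse neurons. They were taken by name from a transcriptional screen of environmental chemicals: libraries whose title contains "sulfuron" or begins with tribenuron, imazamox, imazaquin, imazethapyr, imazapyr, imazapic or diclosulam. The rule found 14 of the 393 libraries of the screen, for 13 of its 297 chemicals. These were 7 sulfonylureas, 5 imidazolinones (imazaquin with 2 libraries) and diclosulam, a triazolopyrimidine sulfonanilide. The other 12 chemicals had 1 library each. All sulfonylureas and imidazolinones were given at 10 µM, whereas the library of diclosulam is labelled 0.1 µM. The study's list of concentrations gives a higher dose for diclosulam, so its dose is uncertain. They were compared with 49 libraries of cultures that received the vehicle, DMSO.

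All libraries came from primary cultures of embryonic mouse cortex, labelled embryonic day 15, from C57BL/6J dams crossed to CAST/EiJ males, and every group shared this hybrid background. The study's methods name a slightly earlier embryonic day. The cultures had received an inhibitor of mitosis, were exposed on day 7 in vitro for 24 h, and polyA RNA was sequenced. They are labelled cortical neurons but also hold non-neuronal cells. The labels do not say which libraries came from the same litter or plating, so p-values measure the spread between these libraries.

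Acetohydroxyacid synthase catalyses the first shared step in the synthesis of valine, leucine and isoleucine, and it needs thiamine diphosphate. Mammals lack this pathway and take branched-chain amino acids from food. They keep distant relatives of the enzyme, Ilvbl and Hacl1, which act in fatty acid oxidation. Antidiabetic sulfonylureas share the sulfonylurea bridge with the herbicides and close the ATP-sensitive potassium channel, whose subunits are Abcc8 and Kcnj11.

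The measurements were 13304 genes per library, given by the authors as deviations on a log10 scale after normalization and removal of batch effects. They were converted to log2, so a difference of 1 is a 2-fold change and no value is a level. Sequencing depth cannot be read from such values. Across all genes, the SD of the log2 differences from the vehicle mean was 0.362 to 0.503 in the herbicide libraries and 0.264 to 0.526 in the vehicle libraries. Vehicle library 39 stood apart, with 2402 genes outside the range of the other 48, where the next vehicle library had at most 900. Topotecan, an inhibitor of topoisomerase 1 that lowers long genes, was the positive control of the screen with 32 libraries.

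The first question was whether the herbicides, taken as a class, moved any gene away from vehicle. In limma with 1 value per chemical (13 against 49), 3 of 13304 genes passed a Benjamini-Hochberg adjusted p of 0.05, which is 0.0225% of the genes tested. Rbm15 and 2810474O19Rik fell and Casp9 rose. All 3 differences were under 0.5 on the log2 scale. Each kept its direction and about its size in every fit that left out 1 chemical, but the adjusted p passed the threshold in some of these fits and missed it in others. All 3 genes were picked by their p in this same comparison, which favours values on 1 side of the vehicle mean. The counts on 1 side given for them below are therefore a description. The share of all genes that are as one-sided is not reported here.

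Rbm15 encodes an RNA-binding protein of the complex that deposits N6-methyladenosine on RNA (protein-coding, mm9 chromosome 3, 107128863 to 107136591, minus strand). Relative to the vehicle mean, the log2 difference was -0.84 in triflusulfuron, -0.74 in metsulfuron, -0.36 in tribenuron, -0.35 in iodosulfuron-methyl-sodium, -0.28 in bensulfuron-methyl, -0.20 in trifloxysulfuron-sodium and -0.19 in mesosulfuron-methyl. Among the imidazolinones it was -0.63 in imazamox, -0.40 in imazethapyr, -0.31 in imazapic and -0.12 in imazapyr, and diclosulam gave -0.46. The 2 libraries of imazaquin lay at opposite ends, at 0.28 and -1.10. By chemical, 13 of 13 values were below the vehicle mean, but the vehicle libraries ran from -0.52 to 0.52 with a median of 0.01, and only 4 herbicide libraries fell under that range. The fitted difference was -0.41 (SE 0.07, 95% interval -0.55 to -0.26, limma adjusted p = 0.00725). Without triflusulfuron it was -0.37 and the call was lost (limma adjusted p = 0.0577).

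2810474O19Rik, named Resf1 in later annotations and known as a silencer of retroelements (protein-coding, mm9 chromosome 6, 149257936 to 149284180, plus strand), was below the vehicle mean in 14 of 14 libraries. The lowest were triflusulfuron (-0.64), metsulfuron (-0.64), imazapic (-0.59) and imazamox (-0.47), all under the vehicle range of -0.46 to 0.43. Trifloxysulfuron-sodium (-0.44), bensulfuron-methyl (-0.27), imazaquin (-0.26 and -0.10), tribenuron (-0.24), iodosulfuron-methyl-sodium (-0.15), imazethapyr (-0.13), diclosulam (-0.09), mesosulfuron-methyl (-0.07) and imazapyr (-0.06) lay inside it. The fitted difference was -0.31 (SE 0.06, 95% interval -0.43 to -0.18, limma adjusted p = 0.0411). With 1 chemical left out it stayed between -0.33 and -0.28, and it missed the threshold without imazamox, tribenuron, metsulfuron, triflusulfuron, trifloxysulfuron-sodium or imazapic, with a limma adjusted p of up to 0.141.

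Casp9 encodes the initiator caspase of the mitochondrial path of apoptosis (protein-coding, mm9 chromosome 4, 141349527 to 141371891, plus strand). It differed by 0.42 in trifloxysulfuron-sodium, 0.36 in tribenuron, 0.33 in diclosulam, 0.32 in imazapyr, 0.31 in bensulfuron-methyl, 0.29 in metsulfuron, 0.28 in mesosulfuron-methyl, 0.24 in imazethapyr, 0.21 in iodosulfuron-methyl-sodium, 0.17 in triflusulfuron and 0.16 in imazamox. The 2 imazaquin libraries gave 0.37 and 0.30, and imazapic gave -0.002. All 14 values lay inside the vehicle range of -0.39 to 0.45. The fitted difference was 0.26 (SE 0.05, 95% interval 0.15 to 0.37, limma adjusted p = 0.0411), with 12 of 13 chemicals above the vehicle mean. With 1 herbicide left out the difference stayed between 0.25 and 0.29. It passed the threshold among these fits only without imazapic, and the limma adjusted p was highest at 0.125 without trifloxysulfuron-sodium, where the difference was 0.25. None of the 15 measured p53 targets was called, and Cdkn1a, a p53-induced inhibitor of the cell cycle, had a difference of 0.16 (limma adjusted p = 0.252).

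**Figure D1:**
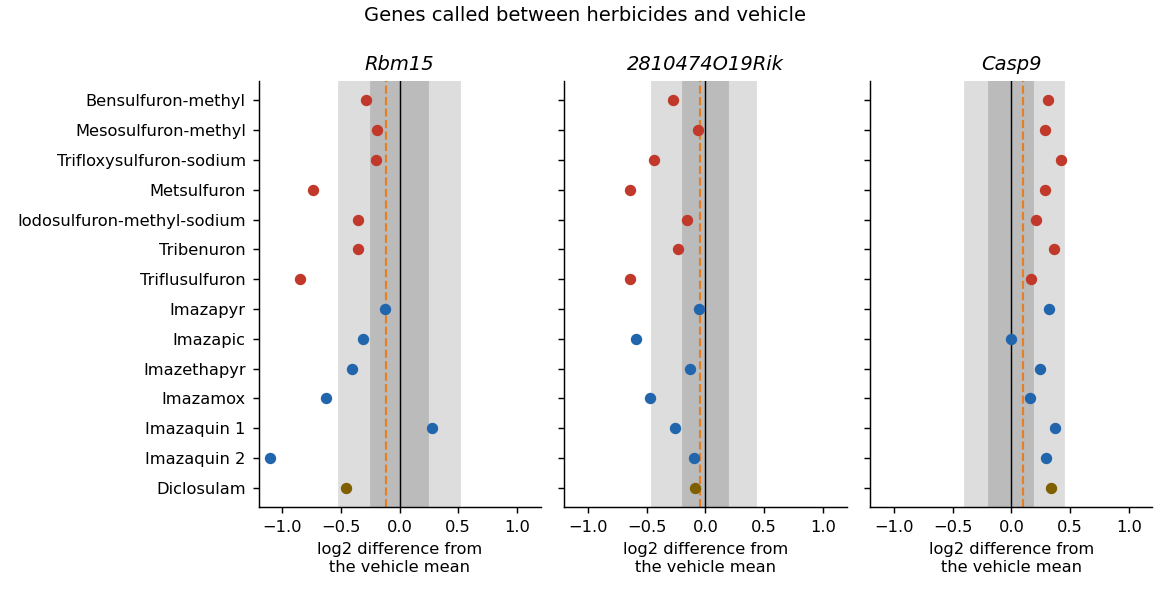
Log2 difference from the vehicle mean (x axis) in each of the 14 herbicide libraries (rows) for the 3 genes called between herbicides and vehicle. Points are single libraries (red, sulfonylureas, blue, imidazolinones, brown, diclosulam), the pale band is the range of the 49 vehicle libraries, the darker band is 1 SD of the vehicle libraries on either side of their mean, and the dashed line is the mean of the other chemicals of the screen. Most points lie inside the pale band, with 4 below it for Rbm15, 4 below it for 2810474O19Rik and 0 outside it for Casp9.

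The rest of the screen gave these 3 genes a second reference. Over the other chemicals, the mean difference from vehicle was -0.11 for Rbm15, -0.05 for 2810474O19Rik and 0.10 for Casp9, and for Casp9 204 of them were above the vehicle mean and 80 below. Against these chemicals the herbicides differed by -0.29 for Rbm15 (95% interval -0.46 to -0.13), by -0.26 for 2810474O19Rik (-0.39 to -0.13) and by 0.16 for Casp9 (0.05 to 0.28). The limma adjusted p-values were 0.889, 0.492 and 0.908. The comparison with other chemicals called 0 of 13304 genes, and 685 (5.15%) had an unadjusted limma p under 0.05, against 1294 (9.73%) in the comparison with vehicle. Both comparisons hold the same 13 herbicides.

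Another 4 herbicides of the same plant enzyme, all at 10 µM, were not chosen by the rule: flumetsulam, penoxsulam, propoxycarbazone-Na and pyrithiobac sodium. Relative to vehicle, their mean difference was -0.28 for Rbm15, with 4 of 4 below the vehicle mean (-0.50 to -0.07). For 2810474O19Rik the mean difference of the 4 herbicides was -0.03, with 2 of 4 below, and for Casp9 0.17, with 3 of 4 above. Against 280 other chemicals, the 4 herbicides differed by -0.17 for Rbm15 (95% interval -0.46 to 0.12), by 0.02 for 2810474O19Rik (-0.21 to 0.25) and by 0.07 for Casp9 (-0.13 to 0.28). In that comparison limma called 0 genes, with 456 (3.43%) at an unadjusted p under 0.05.

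The intervals show how large a shared response could have been. For the 13 herbicides against vehicle, the median 95% interval reached 0.16 to either side of the estimate. It lay wholly within 0.5 of 0 for 11584 genes (87.1%) and within 1 of 0 for 13181 (99.1%). The estimate itself exceeded 1 in 2 genes.

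Genes close to the herbicides' plant target showed no called difference. Ilvbl (mm9 chromosome 10, 78037245 to 78047243), the mammalian relative that was measured, differed from vehicle by -0.03 (95% interval -0.28 to 0.22, limma adjusted p = 0.962). Its values ran from -0.64 in imazethapyr and -0.49 in tribenuron to 0.54 in imazapyr and 0.56 in metsulfuron, all inside the vehicle range of -1.06 to 0.89. The other chemicals of the screen had a mean of 0.21 for this gene, and the herbicides lay below them by 0.24 (95% interval of the difference -0.46 to -0.03, limma adjusted p = 0.949). Of the ATP-sensitive channel, Abcc8, the sulfonylurea receptor, differed by -0.05 (95% interval -0.34 to 0.24) and Kcnj11, the pore, by -0.05 (-0.20 to 0.09). Rapgef4, a cAMP-activated exchange factor that also binds antidiabetic sulfonylureas, differed by 0.01 (-0.17 to 0.19). The sulfonylureas alone had a median of -0.05 over these 3 genes, and so had the imidazolinones, but single genes differed in sign. Means for sulfonylureas and imidazolinones were 0.15 and -0.17 for Rapgef4, -0.07 and 0.05 for Abcc8, and -0.05 in both for Kcnj11. For Rapgef4, 5 of 7 sulfonylureas were above the vehicle mean and 4 of 5 imidazolinones below it. Between the classes, limma called none of the 3.

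Around these genes, 26 lists covering amino acid metabolism, stress, xenobiotic and lipid responses, neuronal function and cell types were read out, and 24 of them had a measured gene. Of their 319 different genes, 0 were called by limma between herbicides and vehicle, where the background was 0.0225%. At an unadjusted p under 0.05 there were 39 (12.2%), beside 9.73% of all genes, and 271 (85.0%) had an interval within 0.5 of 0. The sulfonylureas had 38 such genes (11.9%, all genes 8.76%) and the imidazolinones 13 (4.08%, all genes 4.99%). Against other chemicals there were 14 (4.39%, all genes 5.15%).

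Branched-chain amino acid catabolism, the mammalian pathway that burns valine, leucine and isoleucine, had 25 measured genes with a median difference of 0.08, beside -0.01 over all genes. Pcca, a subunit of propionyl-CoA carboxylase, had the highest difference at 0.35 (95% interval -0.10 to 0.81). Mccc2, a subunit of the carboxylase of leucine breakdown, had the lowest at -0.24 (-0.44 to -0.04, limma adjusted p = 0.405). Of the 25 genes, 4 had an unadjusted p under 0.05 on the higher side and 1 on the lower side, beside 4.08% and 5.64% of all genes. The list's median against the other chemicals is not reported here. A difference shared by chemicals in general therefore cannot be told apart. The 9 measured thiamine diphosphate enzymes and thiamine transporters had a median of 0.02, from Pdhb (-0.02), of the pyruvate dehydrogenase complex, to Ogdhl (0.21), of a 2-oxoglutarate dehydrogenase complex.

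The response to amino acid starvation, run by the transcription factor ATF4, had values on 1 side of 0. All 25 of its genes had a difference above 0 against vehicle, with a median of 0.12, and 8 (32%) had an unadjusted p under 0.05, all on the higher side, beside 4.08% of all genes on that side and 5.64% on the lower side. The lowest was Slc7a11, a cystine transporter, at 0.001, which changed sign in 7 of the 14 fits that left out 1 chemical or vehicle library 39. Phgdh, the first enzyme of serine synthesis, was the highest at 0.62 (SE 0.23, limma adjusted p = 0.330). It lay between -0.61 in trifloxysulfuron-sodium and 1.62 in imazapic, and imazapic alone was above the vehicle range of -2.15 to 1.28. Against the other chemicals of the screen, the list's median was -0.02, with 10 of 25 above 0. By class it was 0.12 for sulfonylureas and 0.07 for imidazolinones. Left without metsulfuron, 24 of 25 were above 0 and the median was 0.12. The cholesterol synthesis list was also one-sided, with 20 of 20 genes above 0 against vehicle (median 0.11), and 15 of 20 above 0 against other chemicals (median 0.03). Its highest member was Fdps, a synthase of isoprenoid precursors, at 0.30 (95% interval 0.09 to 0.52, limma adjusted p = 0.313).

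Lists of xenobiotic and stress responses were close to 0. The aryl hydrocarbon and xenobiotic receptor list had a median of -0.03 over 12 genes, from Abcb1b, a drug efflux pump, at -0.74 (95% interval -1.31 to -0.16, limma adjusted p = 0.368) to Ahrr, the repressor of the aryl hydrocarbon receptor, at 0.28. For Abcb1b the libraries ran from -3.19 in imazamox to 1.77 in imazaquin library 2. The NRF2 antioxidant list (18 genes) had a median of 0.01, p53 targets (15) -0.01, heat shock proteins and chaperones (15) -0.03 and amino acid sensing by mTORC1 (19) -0.002. Genes of PPAR signalling and fatty acid oxidation (17) had a median of 0.09 against vehicle and 0.01 against other chemicals. Their highest member was Plin2, the coat protein of lipid droplets, at 0.70 (95% interval 0.21 to 1.19, limma adjusted p = 0.310).

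Neuronal readouts gave no call. Activity-induced genes (28) had a median of 0.004, with Fos, an immediate early gene, at 0.21 (95% interval -0.18 to 0.60). Subunits of NMDA, AMPA and GABA-A receptors (21) had a median of -0.02. Grin2b, an NMDA receptor subunit, was the lowest at -0.46 (95% interval -0.93 to 0.01), and this value rested on metsulfuron. Its difference was -5.45 in that library and between -0.92 and 0.43 in the other 13, and without metsulfuron the fitted difference was -0.04. The 4 potassium channels singled out in the study had a median of -0.10 and thyroid hormone response genes (12) 0.01. Cytoskeletal and contractile genes (12) had 0.16, with 11 of 12 above 0, beside a median of -0.008 over all genes. Their median against the other chemicals is not reported here, so a difference shared by chemicals in general cannot be told apart.

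Markers of cell types were measured beside these lists, since a bulk library cannot tell fewer cells of a type from less RNA per cell. All 13 neuronal markers were in the table and had a median difference of -0.03, with the highest value in Snap25 (0.03), a synaptic SNARE protein. The median was -0.06 for interneurons (11 genes), 0.002 for astrocytes and radial glia (11), -0.04 for the oligodendrocyte lineage (7), -0.15 for microglia (7), -0.10 for vessel cells and fibroblasts (7) and -0.05 for dividing cells (9). None of these markers was called by limma. Single markers lay between Pdgfrb (-0.35), a receptor of pericytes, and Col1a1 (0.36), a collagen of fibroblasts, both of the vessel and fibroblast list. As the values hold no level, how abundant each cell type was cannot be given.

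List by list and library by library, 15 of the 322 values in the herbicide libraries were outside the vehicle range (4.66%). Leaving each vehicle library out of the range in turn gave 46 of 1127 (4.08%), topotecan 77 of 736 (10.5%) and other chemicals 390 of 6762 (5.77%). Of the 46 vehicle values, 14 came from vehicle library 39. The median number of lists outside per library was 0 in vehicle, 1 in the herbicides and 1 in other chemicals. The herbicides outside did not share a direction within the xenobiotic list, where imazethapyr was above (0.26) and mesosulfuron-methyl (-0.30) and iodosulfuron-methyl-sodium (-0.24) were below. For fatty acid oxidation, metsulfuron (0.38), imazapic (0.36) and imazaquin library 1 (0.36) were above and imazapyr (-0.27) was below. Cytoskeletal genes were above in iodosulfuron-methyl-sodium (0.81), trifloxysulfuron-sodium (0.45) and imazaquin library 2 (0.44). Heat shock proteins were above in imazaquin library 1 (0.22) and below in imazapic (-0.12) and tribenuron (-0.10). The study's potassium channels were above in imazapyr (0.55), and receptor subunits were below in metsulfuron (-0.33). Bensulfuron-methyl, imazamox, triflusulfuron and diclosulam had 0 lists outside.

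**Figure D2:**
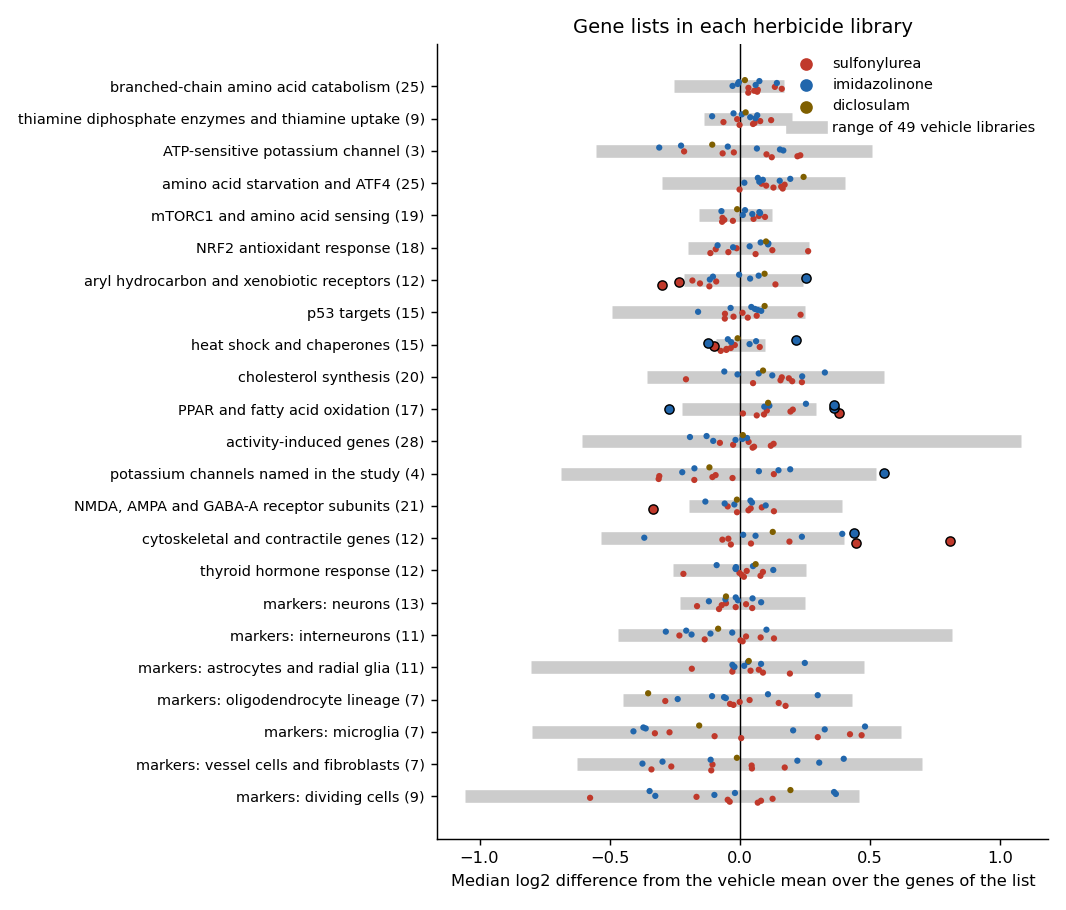
Median log2 difference from the vehicle mean (x axis) over the genes of each list (rows, number of measured genes in parentheses). Each point is 1 herbicide library (red, sulfonylurea, blue, imidazolinone, brown, diclosulam), black outlines mark libraries outside the range of the 49 vehicle libraries (grey bars), and 15 of 322 points are outlined, with cytoskeletal genes in iodosulfuron-methyl-sodium at 0.81 the farthest.

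The chemical classes were then compared with vehicle one by one. For the 7 sulfonylureas limma called 0 of 13304 genes, with 1166 (8.76%) at an unadjusted p under 0.05 and a smallest adjusted p of 0.0763. The genes with the smallest p were Gadd45gip1 (0.33, SE 0.07), a protein of the mitochondrial ribosome, Smim20 (0.49, SE 0.12), which takes part in cytochrome oxidase assembly, and Tsen34 (0.27, SE 0.07), of the tRNA splicing endonuclease, on the higher side. On the lower side they were Akap1 (-0.25, SE 0.05), which anchors protein kinase A at mitochondria, Fam188b (-0.81, SE 0.17), a deubiquitinase, and Rbm15 (-0.42, SE 0.10). Gadd45gip1, Tsen34, Akap1, Fam188b and Rbm15 lay on 1 side of the vehicle mean in 7 of 7 sulfonylureas. Smim20 did so in 6 of 7, with tribenuron at -0.27. Without tribenuron its difference was 0.62 and passed the threshold (limma adjusted p = 0.0222). All of these genes were picked by their p in this same comparison, which favours such counts. The share of all genes on 1 side in 7 of 7 is not reported here. Most other chemicals of the screen shared the direction of the sulfonylureas for each gene. Smim20 was above the vehicle mean in 225 and below it in 59, Tsen34 in 181 and 103, and Gadd45gip1 in 168 and 116. Akap1 was below it in 212 and above it in 72, Rbm15 in 188 and 96, and Fam188b in 162 and 122.

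For the 5 imidazolinones limma also called 0 genes, with 664 (4.99%) at an unadjusted p under 0.05 and a smallest adjusted p of 0.916. Kcns1, a modifying subunit of potassium channels, had a difference of 0.71 (95% interval 0.35 to 1.07). It was 1.18 in imazaquin library 1 and -0.29 in library 2, 1.13 in imazethapyr, 1.08 in imazapyr, 0.53 in imazamox and 0.37 in imazapic. Mettl5, a methyltransferase of ribosomal RNA, gave 0.33 and Wdr1, a cofactor of actin disassembly, gave 0.18. On the lower side were Fam71e1 (-1.0), the SNARE protein Snap29 (-0.23) and Klhl20 (-0.28), an adaptor of a ubiquitin ligase. The median 95% interval reached 0.21 to either side for the sulfonylureas and 0.24 for the imidazolinones, and intervals lay within 1 of 0 for 96.8% and 95.2% of genes.

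Differences between structures were tested in 3 comparisons at the matched dose and time, with p-values adjusted over the genes of all 3 together. The first set the sulfonylurea bridge against the imidazolinone ring (7 against 5 chemicals). Limma called 0 genes, and 3.95% had an unadjusted p under 0.05. Fam188b (mm9 chromosome 6, 55153377 to 55270216) came closest, with a difference of -1.2 (SE 0.25, 95% interval -1.70 to -0.70, limma adjusted p = 0.140). Its values were -1.43 in iodosulfuron-methyl-sodium, -1.26 in triflusulfuron, -1.23 in bensulfuron-methyl, -0.69 in metsulfuron, -0.40 in tribenuron, -0.39 in trifloxysulfuron-sodium and -0.24 in mesosulfuron-methyl. Among imidazolinones they were 0.85 in imazethapyr, 0.46 in imazapyr, 0.38 in imazapic, 0.23 in imazamox, and 0.13 and -0.01 in the 2 imazaquin libraries. The classes did not overlap, but Fam188b was picked by its p in this same comparison, which favours such a separation. The share of all genes without overlap was not counted. Of the 14 libraries, 0 lay under the vehicle range of -1.46 to 0.83 and 1, imazethapyr, lay above it. The next genes by p were Pagr1a (0.60), of histone methyltransferase complexes, Adprhl2 (0.55), an ADP-ribose hydrolase, and Snrnp70 (0.40), of the U1 splicing particle, toward the sulfonylureas. Toward the imidazolinones they were the transcription factor Ets2 (-0.38) and the zinc finger gene Zfp114 (-1.90). The 95% interval of the difference lay within 0.5 of 0 for 8188 genes (61.5%) and within 1 for 11951 (89.8%), so that for most genes a difference of 0.5 or more between the classes lay outside the interval.

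The second comparison set sulfonylureas with a triazine on the urea (metsulfuron, iodosulfuron-methyl-sodium, tribenuron and triflusulfuron) against those with a pyrimidine (bensulfuron-methyl, mesosulfuron-methyl and trifloxysulfuron-sodium). Limma called 0 genes after adjustment over the 3 comparisons, with 802 (6.03%) at an unadjusted p under 0.05. AI848285, a gene with no position matched here, had the largest difference among those with the smallest p, at 2.93 (SE 0.58, 95% interval 1.77 to 4.09, limma adjusted p = 0.0825). It stood at 1.33 in triflusulfuron, 0.91 in tribenuron, 0.76 in metsulfuron and -0.46 in iodosulfuron-methyl-sodium, and at -1.75, -2.69 and -2.45 in the 3 pyrimidines, which were the herbicide libraries under the vehicle range of -1.39 to 2.28. Gpn1, a GTPase needed for nuclear import of RNA polymerase II, had a difference of 0.82 (SE 0.16, limma adjusted p = 0.0825). Its triazine values were 0.65, 0.45, 0.37 and 0.31 and its pyrimidine values -0.02, -0.45 and -0.66. AI848285 and Gpn1 were picked by their p in this same comparison, which favours such a separation. The share of all genes without overlap was not counted. Adjusted within this comparison alone, both genes passed (limma adjusted p = 0.0275), and so the call depends on counting the other comparisons. Gmpr (1.47), a reductase of guanosine monophosphate, Nme5 (-2.17), a kinase-family protein of cilia, Zdhhc23 (-1.0), a palmitoyltransferase, and Mtus2 (-0.40), a microtubule-associated protein, followed. The interval of the difference lay within 1 of 0 for 10615 genes (79.8%).

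The third comparison set imazaquin, whose acid sits on a quinoline, against the 4 imidazolinones with a pyridine (imazapyr, imazapic, imazethapyr and imazamox, which carry no further group, a methyl, an ethyl and a methoxymethyl). Limma called 0 genes, with 757 (5.69%) at an unadjusted p under 0.05 and a smallest adjusted p of 0.311. Drc1, which regulates dynein in motile cilia, had a difference of -2.34 (SE 0.52). The 2 imazaquin libraries gave -3.28 and -1.19, but imazamox at -1.19 was as low as the second. Toward imazaquin the genes with the smallest p were BC002163 (0.53), Nans (0.76), of sialic acid synthesis, and Zfp110 (0.57). Away from it came Kdm5a (-0.66), a demethylase of histone H3, and Zcchc11 (-0.74), a uridylyltransferase. The interval lay within 1 of 0 for 9977 genes (75.0%), the widest margins of the 3 comparisons.

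Single chemicals could not be tested with 1 library each, so each library was set against the range of the 49 vehicle libraries. The number of genes outside ranged from 309 (2.32%) in bensulfuron-methyl to 2258 (17%) in metsulfuron, with a median of 556.5 (4.18%). Vehicle libraries taken against the other 48 had a median of 495 (3.72%), the other chemicals 573.5 (4.31%) and topotecan 1373 (10.3%, lowest 768). Diclosulam had 369 (2.77%), triflusulfuron 456 (3.43%), mesosulfuron-methyl 490 (3.68%), imazapic 502 (3.77%), trifloxysulfuron-sodium 536 (4.03%) and imazethapyr 546 (4.1%). Imazapyr had 567 (4.26%), imazamox 569 (4.28%), tribenuron 590 (4.43%) and iodosulfuron-methyl-sodium 706 (5.31%). Imazaquin had 1051 (7.9%) in library 1 and 673 (5.06%) in library 2. Metsulfuron and imazaquin library 1 were thus the only herbicide libraries above the 900 genes of the second-highest vehicle library, and metsulfuron alone had more than the median topotecan library. Without vehicle library 39 in the range, the median was 590.5.

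**Figure D3:**
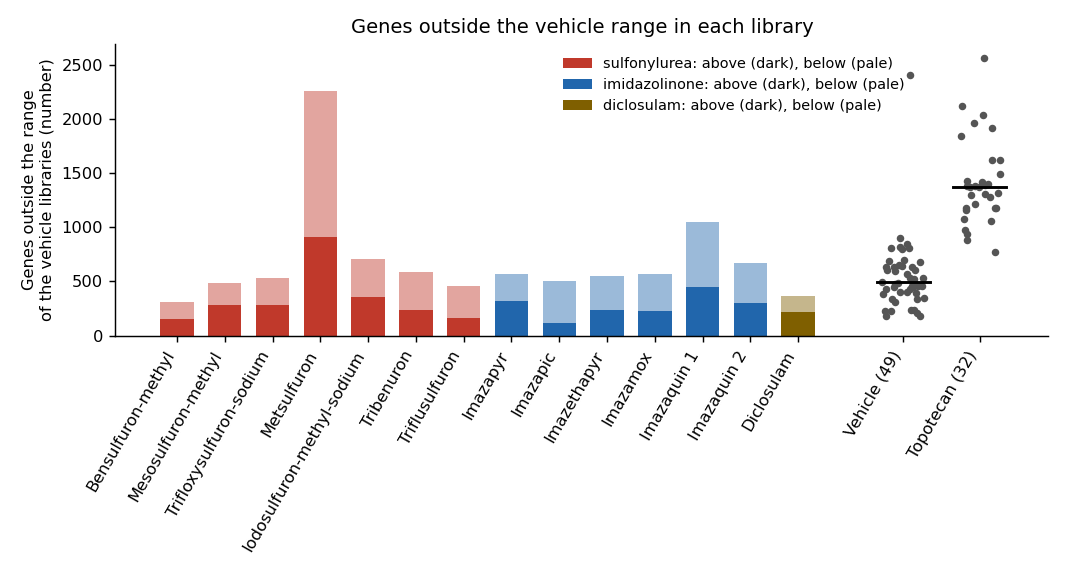
Number of genes (y axis) above (dark) and below (pale) the range of the 49 vehicle libraries in each herbicide library, with single vehicle libraries (each against the other 48) and single topotecan libraries as points and their medians as lines. Metsulfuron (2258 genes) stands among the topotecan libraries and imazaquin library 1 (1051) above all but 1 of the vehicle libraries, while the other herbicides lie among the vehicle libraries.

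The size of the deviation over all genes gave the same picture. The SD of a library's log2 differences from vehicle averaged 0.404 ± 0.035 (SD, n = 13) for the herbicides and 0.382 ± 0.045 (SD, n = 49) for vehicle, a difference within the spread between libraries (two-sided permutation test, p = 0.122). Sulfonylureas (0.412) and imidazolinones (0.398) did not differ beyond their spread (exact permutation test, two-sided, p = 0.616), and without metsulfuron the sign of that difference turned (-0.0008, exact permutation p = 0.948).

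Metsulfuron had the largest deviation of the 14 libraries and a pattern tied to transcript length. Sorted into 10 bins of coding transcript length (12029 genes), its median difference went down from bin to bin, from 0.34 in the shortest bin, with a median length of 1040 bases, to -0.36 in the longest, with 7926 bases. In the vehicle libraries these medians lay between -0.19 and 0.11 for the shortest and between -0.12 and 0.22 for the longest bin. In topotecan they lay between -0.04 and 0.20 and between -0.24 and -0.02. The Spearman correlation over genes between difference and transcript length was -0.48 in metsulfuron, -0.23 to 0.36 in vehicle and -0.41 to -0.002 in topotecan. Its correlation with transcript GC content was 0.37, where vehicle libraries reached 0.33 and topotecan libraries 0.38. Other chemicals of the screen (294 libraries) went past metsulfuron in both, down to -0.51 for transcript length and up to 0.46 for GC content. Genes over 100 kb had a median of -0.21 in metsulfuron, with 73.9% of 1950 such genes lower than in vehicle. This is inside the ranges of topotecan (-0.42 to -0.12) and of the other chemicals (-0.37 to 0.11) and outside the vehicle range (-0.10 to 0.16). Over genes, the correlation of metsulfuron with the mean topotecan profile was 0.26. This is above the highest vehicle library (0.23) and below the lowest topotecan library (0.37), and other chemicals reached 0.71. These other chemicals include camptothecin and irinotecan, which also inhibit topoisomerase 1. Which chemicals gave the extremes of their ranges is not reported here. How far transcript length and GC content account for the genes outside the vehicle range in this library was not tested. Single genes far below vehicle in metsulfuron included Grin2b (-5.45), Zfp114 (-3.81), Igf2 (-2.15) and Sesn3 (-2.03), a sensor of stress. With 1 library, they have no replicate check.

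Both imazaquin libraries leaned the same way by length, with medians of 0.11 and 0.09 in the shortest and -0.11 and -0.12 in the longest bin. In some of the bins between they left the vehicle range: both stood at 0.08 in the second bin, where vehicle reached 0.07, and library 1 at -0.07 in the ninth, where vehicle reached down to -0.06. The other 11 herbicide libraries had medians between -0.001 and 0.06 in the shortest bin.

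**Figure D4:**
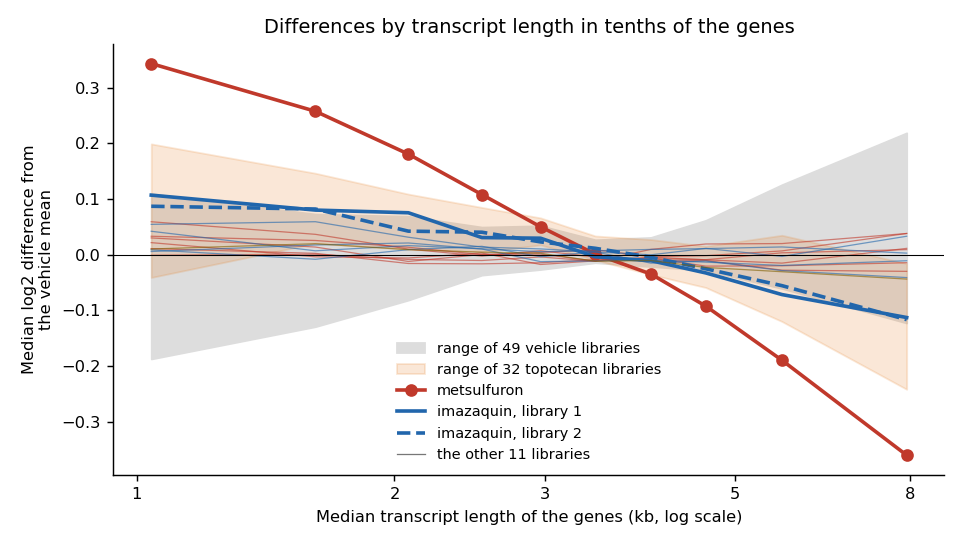
Median log2 difference from the vehicle mean (y axis) over genes in 10 bins of coding transcript length (x axis, median length of the bin in kb on a log scale) for the 14 herbicide libraries. The grey band is the range of 49 vehicle libraries and the orange band that of 32 topotecan libraries, and metsulfuron (red, circles) leaves both bands at both ends, from 0.34 to -0.36, while both imazaquin libraries (blue, thick) stay inside the orange band.

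Imazaquin, the only herbicide measured more than once, showed how far a single library repeats. In 67 genes both libraries were outside the vehicle range on the same side, 24 above and 43 below. Pairs of different herbicides shared a median of 25 such genes (8 to 287) and pairs of topotecan libraries 601.5. The pair with 287 was imazaquin library 1 and metsulfuron, followed by imazaquin library 2 and metsulfuron with 77 above and 199 below. The 3 genes farthest above in both imazaquin libraries were Plin2 (1.23 and 1.74), the noncoding imprinted RNA H19 (1.26 and 1.67) and its neighbour Igf2 (1.14 and 1.63), a fetal growth factor. Each was also above the vehicle range in another library, Plin2 in diclosulam (2.13), H19 in trifloxysulfuron-sodium (1.34) and Igf2 in imazamox (2.29). Among those farthest below were Asah2 (-1.21 and -1.96), a ceramidase, and Ccdc61 (-1.57 and -1.36), a protein of centrosomes. For Plin2 the pyridine imidazolinones ran from -0.07 in imazapyr to 1.02 in imazethapyr, and the difference between imazaquin and these was 0.90 (95% interval -0.44 to 2.24, limma adjusted p = 0.960).

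Whole profiles gave the herbicides little in common. Over the 5121 variably expressed genes (SD above 0.1 on the log10 scale), the Spearman correlation between pairs of different herbicides had a median of 0.008 (90 pairs, -0.16 to 0.13). Pairs of different other chemicals had 0.006, vehicle pairs 0.02 and topotecan pairs 0.26. Within the sulfonylureas the median was -0.01 (21 pairs), within the imidazolinones 0.01 (14 pairs) and between the classes 0.008 (42 pairs). The 2 imazaquin libraries correlated at 0.06, under the 95th percentile of 0.07 for pairs of different other chemicals. Of the 90 pairs, 4 were above that percentile, and the highest was imazaquin library 2 with metsulfuron at 0.13. The lowest were imazapyr with iodosulfuron-methyl-sodium (-0.16) and with imazaquin library 2 (-0.11), with label numbers 542, 544 and 543. Imazaquin library 2 with iodosulfuron-methyl-sodium, whose numbers also follow each other, was at -0.02. Imazamox with imazethapyr, again with following numbers, was at -0.06. Pairs of other chemicals with following numbers had a median of -0.08. All pairs share the gene medians and the batch correction applied to the table, and genes are not independent, so these values are a description.

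**Figure D5:**
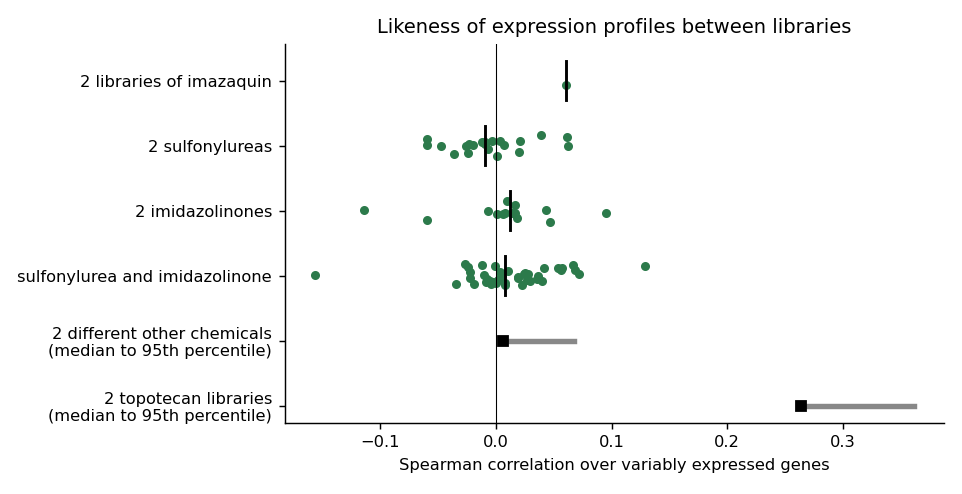
Spearman correlation (x axis) over 5121 variably expressed genes between pairs of libraries, by kind of pair (rows). Points are pairs of herbicide libraries, vertical bars their medians, and squares with grey lines the median and 95th percentile of pairs of other chemicals and of topotecan libraries. Herbicide pairs lie around 0 (-0.16 to 0.13), the imazaquin pair at 0.06 and the topotecan median at 0.26.

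Genes outside the vehicle range in several herbicide libraries were then counted. Of 13304 genes, at least 4 of the 14 libraries were above it in 50 and below it in 63. No such count was made for sets of vehicle libraries or other chemicals, so whether these numbers are high or low was not tested. The most frequent was Cetn3, a centrin of the centrosome, above in 7 libraries. Chid1, Mettl5 and Snapc2 were above in 6, and Ercc6, Hist2h3c1 and Zik1 were below in 6. For Mettl5 these 6 were imazapic (0.56), imazethapyr (0.46), both imazaquin libraries (0.42 and 0.39), metsulfuron (0.40) and imazamox (0.33). Thus 5 of 6 imidazolinone libraries, 2 of them of imazaquin, and 1 of 7 sulfonylurea libraries were outside. Between sulfonylureas and imidazolinones the difference was -0.20 (95% interval -0.43 to 0.03, limma adjusted p = 0.948). In topotecan the mean of Mettl5 was 0.19, with 26 of 32 libraries above the vehicle mean. Other chemicals had a mean of 0.07, with 171 above and 113 below.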

How the data were processed

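The authors aligned polyA RNA-seq reads to mm9 with TopHat (per the labels and the study's methods), computed RPKM over RefSeq gene models, kept genes detected in most samples, and took log10 values that were quantile-normalized, median-centred and freed of batch effects (of the culture and of sequencing) by a mixed model analysis. The deposited table holds these centred log10 values for 13304 genes and 393 libraries, so that it gives differences, not levels, and its depth is unknown. What the batch correction left or removed cannot be seen in it, and precision here comes from the spread between libraries.

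Values were converted to log2. Differences were fitted with limma 3.58.1 in R 4.3.3 (moderated, without a trend, two-sided), with Benjamini-Hochberg adjustment over 13304 genes and a threshold of 0.05. The 2 imazaquin libraries entered as their median, except in the comparison with the pyridine imidazolinones, where they entered as single libraries. The 3 structural comparisons were adjusted over the genes of all 3. A single value per library was tested by permutation (100000 resamples, or exact). No pseudocount or filter was added. The lists for mitochondrial-genome and red blood cell genes had 0 measured genes. Named genes were those called, otherwise the 3 with the smallest p on each side of a comparison, the relatives of the plant enzyme, the ATP-sensitive channel, the extremes of each list and the 3 genes on each side farthest outside the vehicle range in both imazaquin libraries. Some genes that fall under this rule are not reported here. The genes named for metsulfuron and for being outside in several libraries were chosen after their values were seen. The herbicides and gene lists were chosen with earlier results of these data known. Positions are from an mm9 annotation, matched by symbol for 12261 genes and by another symbol for 640. The raw count tables of other experiments in the series, which hold none of these herbicides, were not used.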

Additional observations from a re-analysis of the deposited data

Results flagged for a closer look

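Of 56 sets of values read for a library far from its class, 7 had a gap beyond Dixon's 95% limit, where chance gives about 1 in 20. Metsulfuron gave 3 of them among the 7 sulfonylureas: the SD of its log2 differences (0.503), the number of genes outside the vehicle range (2258) and the correlation of its differences with transcript length (-0.481). These describe 1 library and are not independent of each other. Among the 6 imidazolinone libraries, imazaquin library 1 had 1051 genes outside the vehicle range, and imazamox had a correlation of -0.152 between difference and GC content, inside the vehicle range of -0.20 to 0.33. Imazapyr was far from the other imidazolinones for Mettl5, with a difference of -0.0886, and for Zfp114, with 2.20.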

How the results depend on the processing

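Between herbicides and vehicle limma called 3 genes, and 0 with only the variably expressed genes, 1 at a threshold of 0.01, 8 at a threshold of 0.1 and 2 to 4 under the other settings of the model and scaling. Leaving out 1 chemical, or vehicle library 39 (5 calls, chosen after seeing the data), gave 0 to 5 calls, with 0 without triflusulfuron, 1 without imazamox, tribenuron or metsulfuron, and 5 without bensulfuron-methyl. Casp9 missed the threshold without diclosulam (difference 0.258, limma adjusted p = 0.0878), and 2810474O19Rik with weights per library (-0.28, limma adjusted p = 0.0594), both with a difference close to the reported one. The sulfonylureas had 3 calls at a threshold of 0.1 and 0 to 1 when 1 library was left out (1 without tribenuron or without metsulfuron). Triazine against pyrimidine had 1 call among variably expressed genes, 2 at a threshold of 0.1, 2 when adjusted within the comparison and 0 to 2 with 1 library left out, the most without iodosulfuron-methyl-sodium. Imazaquin against pyridine imidazolinones had 0 to 2 with 1 library left out, 2 without imazaquin library 2, where the lone imazaquin library is assumed to vary like the other groups. The other 4 comparisons across genes had 0 calls under every setting run.

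Differences near 0 changed sign. Slc7a11 (0.001) was -0.0295 without diclosulam, and Lima1 (-0.002) was 0.0371 with weights, 0.002995 re-centred, 0.0138 after quantile normalization, 0.0315 by single libraries and 0.00126 without diclosulam. With 1 library left out, ranges that crossed 0 were -0.0815 to 0.0188 for Ilvbl, -0.0578 to 0.0034 for Pdhb, -0.0976 to 0.0086 for Abcc8, -0.0243 to 0.0516 for Rapgef4, -0.0323 to 0.0221 for Slc7a11, -0.217 to 0.0067 for Sesn3, -0.276 to 0.0359 for Nqo1, -0.0993 to 0.00532 for Acot1 and -0.0769 to 0.0754 for Lima1. The SD difference between sulfonylureas and imidazolinones ran from -0.00081 to 0.0227. The cause of each change was not tested. No paired analysis was possible because the labels give the herbicide and vehicle libraries no shared number that marks a common litter, batch or day. With 1 library for most chemicals, values of a single chemical have no replicate check.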
